A study of Mus musculus with 2 samples.

Results

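The genes described here are 5 that help to set whether a lymphocyte stays in a lymphoid organ or leaves it: S1pr1, S1pr4, Cd69, Gpr183 and Selplg. They were chosen by name for these roles, with earlier results of these data known, and they are 5 of the 31253 genes in the count matrices. Their transcripts were measured in 2 single-cell RNA libraries of mouse spleen cells sorted as CD4+ Foxp3+ regulatory T (Treg) cells, which restrain the responses of other lymphocytes. The Foxp3YFP-Cre Kmt2d+/+ library (here +/+) came from mice with intact Kmt2d, and the Foxp3YFP-Cre Kmt2dfl/fl library (here fl/fl) from mice with both Kmt2d alleles floxed. Kmt2d encodes a histone H3 lysine 4 methyltransferase. In both groups the Foxp3 locus drove a YFP-Cre recombinase, so the groups shared the Cre and differed in the floxed alleles. Each library was a pool of cells from 3 mice, and there was 1 library per group. No test across replicates was therefore possible, every value describes these libraries, and the intervals given cover counting error only.

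Lymphocytes leave lymphoid tissue by following sphingosine-1-phosphate (S1P), a lipid that is abundant in blood and lymph and scarce within the tissue. S1PR1 is the main receptor for this exit, CD69 is an early activation protein that binds S1PR1 and draws it off the cell surface, and the transcription factor KLF2 switches on S1pr1. S1PR4 is a second S1P receptor of blood cells. GPR183 (EBI2) senses oxysterols and places B cells, T cells and dendritic cells at the edges of follicles and in the bridging channels of the spleen. PSGL-1, the product of Selplg, is the main ligand of P-selectin on leukocytes and takes part in their capture on vessel walls.

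In the GRCm38 build, with GENCODE M21 annotation, the 5 genes lie on 5 chromosomes, each on the minus strand. S1pr1 (ENSMUSG00000045092) spans chromosome 3 from 115710433 to 115715072, and S1pr4 (ENSMUSG00000044199) spans chromosome 10 from 81497747 to 81500132. Cd69 (ENSMUSG00000030156) spans chromosome 6 from 129267325 to 129275436. Gpr183 (ENSMUSG00000051212) spans chromosome 14 from 121952551 to 121965195, within the protein-coding gene Ubac2 on the opposite strand. Selplg (ENSMUSG00000048163) spans chromosome 5 from 113818536 to 113832644.

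The +/+ matrix held 7947 barcodes and 53680614 unique molecular identifiers (UMIs, each counting 1 captured transcript), and the fl/fl matrix held 8784 barcodes and 63989234 UMIs. Of these barcodes, 7790 and 8634 had at least 500 genes and at most 10% mitochondrial UMIs, and 15 barcode sequences occurred in both libraries. Kmt2d itself stood at 69.7 CPM (a gene's UMIs scaled to the same total of UMIs in each sum of cells) in the Treg-gated cells of the +/+ library and at 66.3 CPM in those of the fl/fl library. The kit reads the 3′ end of a transcript, so this value does not check a deletion elsewhere in the gene. Foxp3, the transcription factor that defines Treg cells, gave few UMIs, with 38.2 and 26.8 CPM in the Treg-gated cells of +/+ and fl/fl. A UMI of it was present in 12.0% and 8.90% of the cells that passed.

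Cells were assigned to 20 cell types by counting the marker genes each cell had detected, and none of the 5 genes served as a marker. The sort was for Treg cells, yet the T gate held 81.5% of +/+ and 74.2% of fl/fl cells, and the Treg gate 52.1% (4055 cells) and 42.9% (3707 cells). Treg-gated cells were divided into resting, intermediate and effector bands by the number of resting-type markers (such as Tcf7 and Lef1) minus the number of effector-type markers (such as Icos and Maf). These bands are ranges on a score, not cell types, and 835 +/+ and 654 fl/fl Treg-gated cells lay in the intermediate range next to the limits. The resting band held 1517 +/+ and 2206 fl/fl cells, and the effector and late effector bands together held 1455 and 615, so pooled Treg values also carry this difference in makeup. Late effector cells had in addition a UMI of Klrg1, Il10 or Gzmb. Cycling and interferon-responding Treg cells were set apart by their own markers, whatever their band, so makeup by band can differ between the libraries there too.

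Over all Treg-gated cells, S1pr1 was the member that differed most between the libraries. It stood at 136.1 CPM (3612 UMIs) in +/+ and at 231.5 CPM (6757 UMIs) in fl/fl, which is 1.70-fold higher in fl/fl, a log2 ratio of 0.77 with a 95% counting interval of 0.71 to 0.83. S1pr4 went the other way, at 51.0 and 35.6 CPM in +/+ and fl/fl (log2 ratio −0.52, interval −0.64 to −0.40). Counting intervals are narrow at such UMI totals, so these ratios are set beside those of all genes below. Cd69 stood at 295.2 and 372.3 CPM in +/+ and fl/fl (log2 ratio 0.33, interval 0.29 to 0.38). Gpr183 was at 181.4 and 174.9 CPM (log2 ratio −0.05, interval −0.11 to 0.00), and Selplg at 194.7 and 202.2 CPM (log2 ratio 0.05, interval 0.00 to 0.11). Pooled Treg cells of the libraries thus differed in the S1P receptors and Cd69, and by little in Gpr183 and Selplg.

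A rule of size was used to set these values beside all genes: a gene counted as past 1.5-fold when its CPM ratio was at least 1.5 either way and the counting interval excluded 1. Of the 8021 genes at 10 CPM or more in Treg-gated cells of either library, 2.28% were past 1.5-fold higher in fl/fl and 9.28% past 1.5-fold lower. Of the 5 members, 1 was past it higher (S1pr1) and none lower. S1pr1 ranked 102nd of the 8021 genes from the highest ratio. The median log2 ratio of all these genes was −0.13, and relative to that median S1pr1 stood at 0.89, S1pr4 at −0.39, Cd69 at 0.46, Gpr183 at 0.07 and Selplg at 0.18. The sign for Gpr183 therefore depends on the scaling. The S1pr4 difference was smaller when the resting, intermediate, effector and late effector bands were given equal weight, with a log2 ratio of −0.19.

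**Figure D1:**
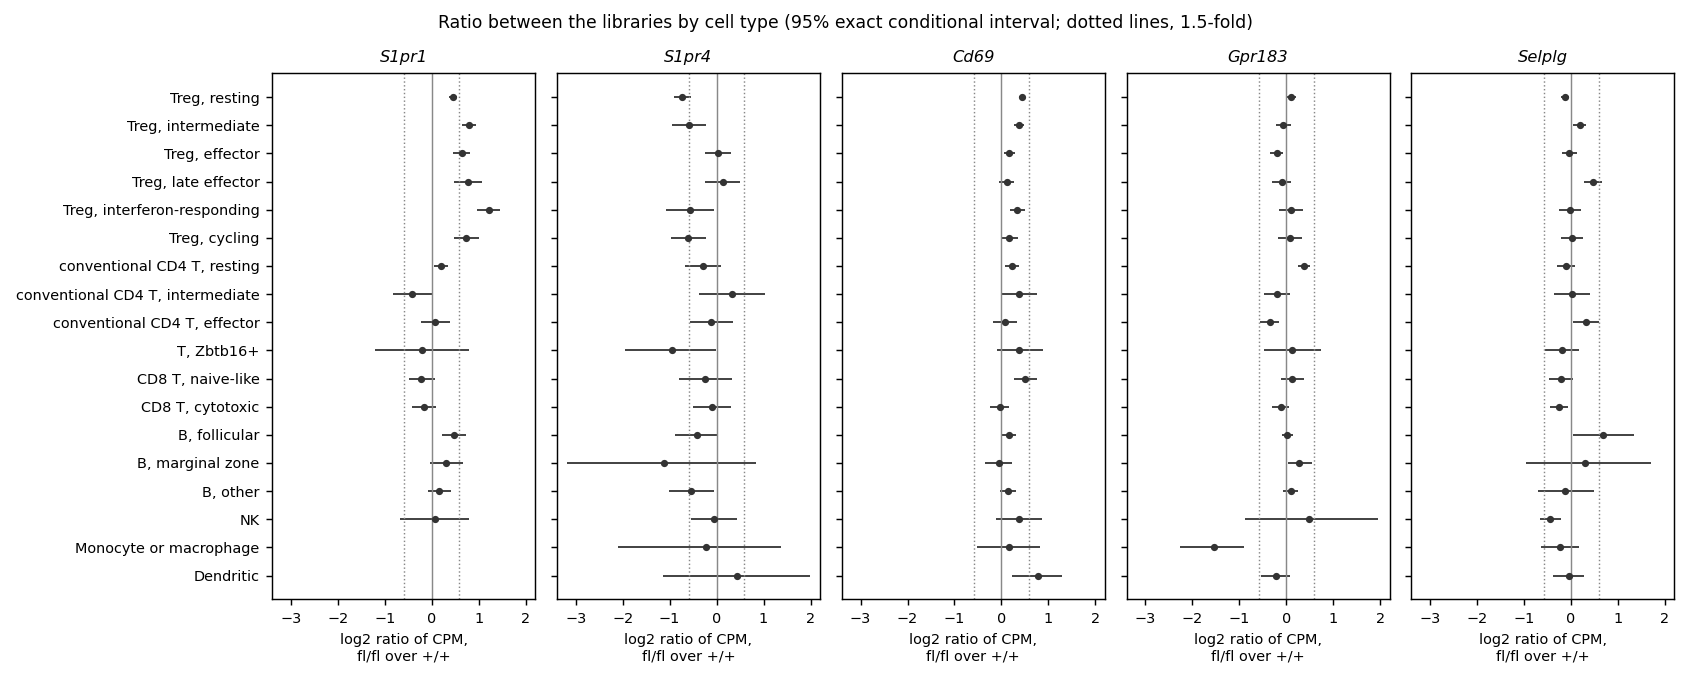
Log2 ratio of CPM, fl/fl over +/+ (horizontal axis), of each gene in each marker-gated cell type with at least 50 cells and 5 UMIs of the gene in each library; bars are 95% exact conditional intervals that cover counting error only, and dotted lines mark 1.5-fold. S1pr1 lies right of 0 in all 6 Treg gates (0.45 to 1.21), S1pr4 lies left of 0 in the resting Treg gate (−0.73), and Gpr183 is lowest in the monocyte or macrophage gate (−1.55).

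S1pr1, the exit receptor, was higher in the fl/fl library in each of the 6 Treg gates, with counting intervals that excluded 0 in all 6 and ratios past 1.5-fold in 5. In resting Treg-gated cells it stood at 200.0 CPM (interval 191.1 to 209.3) in +/+ and at 273.0 CPM (264.9 to 281.3) in fl/fl, 1.36-fold higher, which was short of 1.5-fold. In effector cells the levels were 94.5 and 146.8 CPM (log2 ratio 0.64, interval 0.45 to 0.82), and in late effector cells 70.9 and 121.2 CPM (0.77, interval 0.47 to 1.08). The resting band was above the effector bands in both libraries, and the fl/fl effector cells were below the +/+ resting cells. Intermediate cells had 119.2 and 208.0 CPM (0.80, interval 0.65 to 0.95), and cycling cells 94.6 and 157.3 CPM (0.73, interval 0.47 to 1.01). The interferon-responding cells had the widest gap, 126.8 CPM in +/+ and 294.2 CPM in fl/fl, which is 2.32-fold. The cycling and interferon-responding gates took cells from any band, so their ratios also carry makeup. Effector-type markers summed to 4355.0 and 2295.9 CPM (+/+ and fl/fl) in cycling cells, and to 1462.3 and 797.2 CPM in interferon-responding cells. Resting-type markers summed to 956.5 and 1554.1 CPM, and to 1948.2 and 2684.4 CPM, in the same order. The part of makeup in these ratios was not tested. In the +/+ library interferon-responding cells were below the resting band (log2 ratio −0.66, interval −0.87 to −0.46). In the fl/fl library their interval against the resting band included 0 (0.11, interval −0.04 to 0.26). The shares of all measured genes past 1.5-fold higher in the resting, intermediate, effector, late effector, interferon-responding and cycling gates were 2.81%, 3.20%, 4.03%, 4.27%, 4.0% and 3.38%.

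The share of cells with an S1pr1 UMI gave the same order at equal depth. Fl/fl Treg-gated cells had more UMIs per cell, with a median of 6915.0 against 5654.0 in +/+. In conventional CD4 T cells the median was lower in fl/fl (5127.5 against 5426.0 in +/+), as it was in CD8 T and B cells. To compare at equal depth, each cell was thinned at random to 2500 UMIs and shallower cells were left out. This kept 4028 +/+ and 3696 fl/fl Treg-gated cells. After thinning, 37.9% (95% Clopper-Pearson interval 35.4% to 40.4%) of +/+ and 46.2% (44.1% to 48.4%) of fl/fl resting Treg-gated cells had an S1pr1 UMI, and before thinning 62.0% and 75.4%. Dendritic- and neutrophil-gated cells were read as the background that free RNA can set. Dendritic-gated cells (median 9191.0 UMIs in +/+ and 9215.0 in fl/fl) had a thinned share of 0% in both libraries and an unthinned share of 1.16% and 0%. Neutrophil-gated cells (median 8529.0 and 7709.5 UMIs) had a thinned share of 1.28% and 0%, and an unthinned share of 3.45% and 2.08%. The shares in Treg-gated cells were far above this background.

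Outside the Treg gates, the S1pr1 ratios of the T, B and NK cell gates ran from −0.42 to 0.47. Resting conventional CD4 T cells, the CD4+ cells with no Foxp3 or Ikzf2 UMI, had 294.2 CPM in +/+ and 336.8 CPM in fl/fl (log2 ratio 0.20, interval 0.04 to 0.35). The intermediate conventional cells had 269.7 and 202.2 CPM (−0.42, interval −0.83 to −0.00), from 76 and 69 cells. Effector conventional cells had 205.0 and 215.7 CPM (0.07, interval −0.23 to 0.38). Over all conventional CD4 T cells the ratio was 0.06 (interval −0.07 to 0.19), whereas CD8 T cells had 232.3 CPM in +/+ and 196.2 CPM in fl/fl (−0.24, interval −0.43 to −0.06). Follicular B cells had 137.8 and 190.8 CPM (0.47, interval 0.22 to 0.72), so a higher level in fl/fl was also measured in a cell type other than Treg cells. The differences in ratio between cell types were not tested.

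By level, S1pr1 transcripts were most abundant in resting T cells. In the +/+ library the order from the top was resting conventional CD4 T cells (294.2 CPM), naive-like CD8 T cells (274.8 CPM), intermediate conventional cells (269.7 CPM), marginal zone B cells (212.5 CPM), effector conventional cells (205.0 CPM), resting Treg cells (200.0 CPM) and cytotoxic CD8 T cells (198.8 CPM). None of these neighbours differed beyond counting error. The ends of the run, which are not neighbours, had intervals of 272.4 to 317.2 and 173.4 to 227.0 CPM. Effector Treg cells (94.5 CPM), late effector Treg cells (70.9 CPM), Zbtb16+ T cells (43.3 CPM) and natural killer (NK) cells (42.5 CPM) formed the lower part of the lymphocytes. Plasma cells (9.61 CPM from 34 cells), neutrophils (6.14 CPM), monocytes or macrophages (3.97 CPM) and dendritic cells (1.13 CPM) were at the bottom. In the fl/fl library, resting conventional cells were again highest (336.8 CPM) and were above the next gate beyond counting error. Interferon-responding (294.2 CPM) and resting (273.0 CPM) Treg cells came next and did not differ beyond counting error. No S1pr1 UMI was found in the 57 fl/fl dendritic cells, which allows a level of up to 5.15 CPM.

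**Figure D2:**
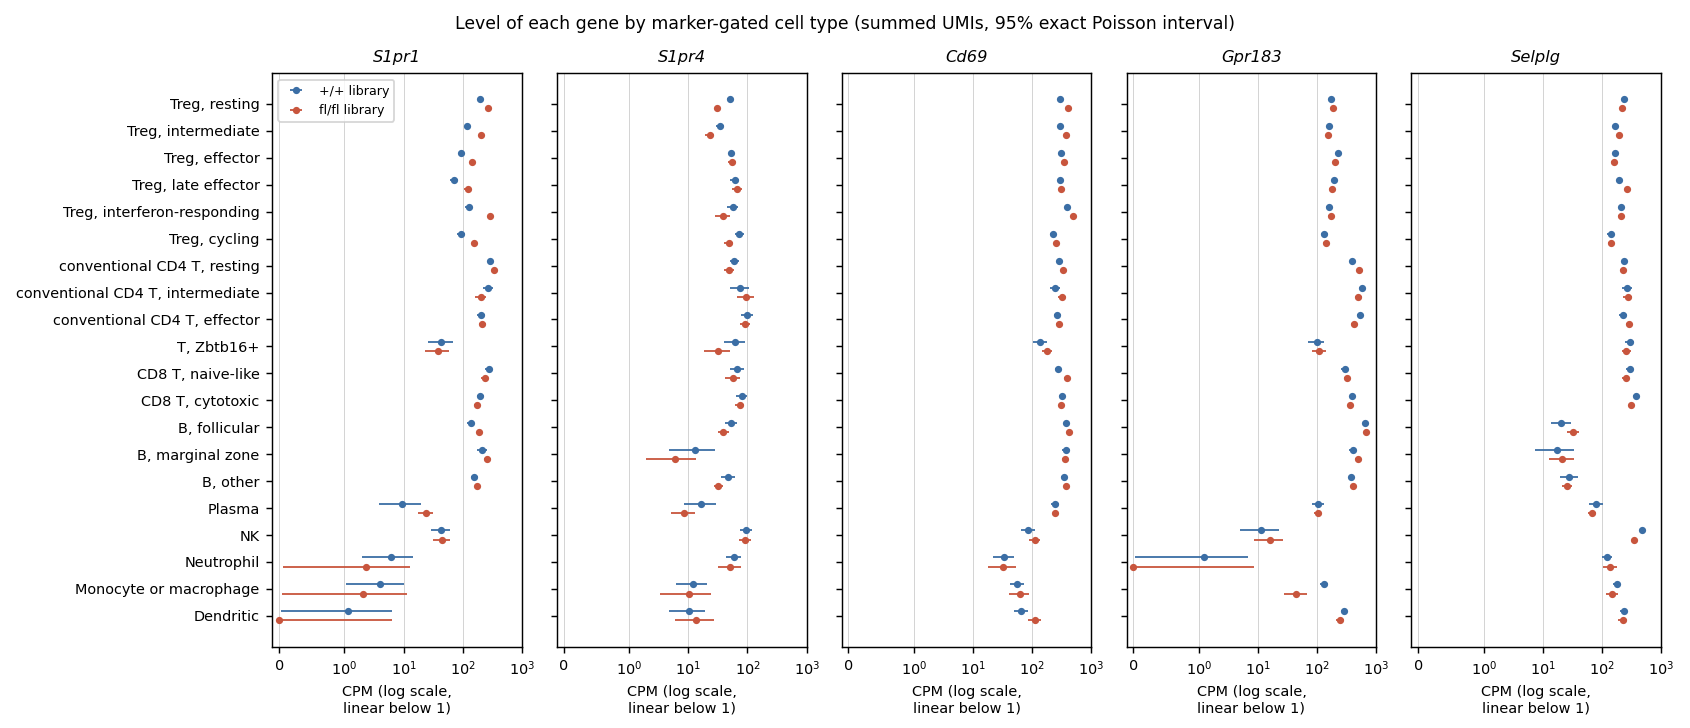
Level of each gene in CPM (horizontal axis, log scale that is linear below 1) in 20 marker-gated cell types of the +/+ library (blue) and the fl/fl library (red); bars are 95% exact Poisson intervals for counting error. S1pr1 ranges from at least 200.0 CPM in the resting and naive-like T cell gates of both libraries to under 10 CPM in neutrophils, monocytes and dendritic cells, whereas Selplg is lowest in the B cell gates (17.2 to 32.7 CPM).

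S1pr4 had a pattern unlike that of S1pr1. In resting Treg-gated cells it stood at 50.3 CPM (470 UMIs) in +/+ and at 30.4 CPM (480 UMIs from more and deeper cells) in fl/fl, which is 1.65-fold lower (log2 ratio −0.73, interval −0.91 to −0.54). In intermediate cells it stood at 34.3 and 23.0 CPM (−0.58, interval −0.94 to −0.22). In effector cells the levels were 53.6 and 55.1 CPM (0.04, interval −0.24 to 0.31), and in late effector cells 60.5 and 66.3 CPM (0.13, interval −0.24 to 0.50). The lower level in fl/fl was thus measured in the resting and intermediate bands, while the intervals of both effector bands included 0 with all UMIs counted. Cycling cells, at 72.8 and 47.8 CPM (−0.60, interval −0.98 to −0.23), and interferon-responding cells, at 55.9 and 37.9 CPM (−0.56, interval −1.08 to −0.06), were lower in fl/fl as well. S1pr4 was therefore past 1.5-fold lower in 2 of the 6 Treg gates, where 8.36% (resting) and 6.93% (cycling) of all measured genes were. The cycling call rests on 1 cell, which held 13 of the 123 +/+ UMIs: without it, an alternative chosen after seeing the data, the levels were 65.8 and 47.8 CPM (−0.46, interval −0.84 to −0.08), short of 1.5-fold. The thinned shares of cycling cells with an S1pr4 UMI were 13.9% in +/+ and 12.4% in fl/fl. In the intermediate, effector, late effector and interferon-responding gates, 10.9%, 8.75%, 11% and 9.82% of genes were past it lower. The thinned share of resting Treg-gated cells with an S1pr4 UMI was 12.6% in +/+ and 7.50% in fl/fl, and the unthinned share 25.2% and 18.8%.

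Within the fl/fl library, resting Treg-gated cells had less S1pr4 than the sum of effector and late effector cells (log2 ratio −0.96, interval −1.18 to −0.74). Within the +/+ library the same ratio was −0.14 (interval −0.33 to 0.04). For S1pr1 the ratio of resting over effector cells was 1.18 (1.06 to 1.30) in +/+ and 0.99 (0.87 to 1.11) in fl/fl, so the receptors had opposite signs in fl/fl. In +/+ no direction was read for S1pr4, whose ratio was 0.02 after thinning and 0.04 with gates rebuilt on thinned counts. Past 1.5-fold in the resting direction were 3.84% of all measured genes in +/+ and 4.26% in fl/fl, and in the effector direction 15.6% and 18.1%. Conventional CD4 T cells also had more S1pr4 in the effector than in the resting band, with resting over effector ratios of −0.72 in +/+ and −0.89 in fl/fl. There 13.5% and 18.7% of genes were past 1.5-fold in the effector direction.

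Among all cell types, S1pr4 was highest in effector conventional CD4 T cells (99.2 CPM) and NK cells (94.8 CPM) in the +/+ library. In the fl/fl library intermediate conventional CD4 T cells (94.2 CPM), effector conventional cells (91.7 CPM) and NK cells (90.7 CPM) were at the top. In the +/+ library no neighbours in the order differed beyond counting error from effector conventional cells down to intermediate Treg cells. Only adjacent gates were compared, and the ends of this run lay apart, at 99.2 CPM (interval 78.0 to 124.4) and 34.3 CPM (29.3 to 40.0). Neutrophils had 59.0 and 50.4 CPM, a level within the range of the T cell gates, whereas S1pr1 stood at 6.14 and 2.29 CPM in them. Marginal zone B cells had little S1pr4, with 6 UMIs (12.9 CPM) in +/+ and 5 UMIs (5.88 CPM) in fl/fl, against 52.3 and 39.1 CPM in follicular B cells. The follicular over marginal zone ratio was 2.02 (interval 0.83 to 3.51) in +/+ and 2.73 (1.46 to 4.39) in fl/fl, and for S1pr1 it was −0.62 and −0.46, so these B cell types differed in opposite directions for the receptors. Between the libraries, S1pr4 was also lower in fl/fl in B cells as a whole (45.3 and 32.3 CPM; −0.49, interval −0.80 to −0.18). The share of B cells with an S1pr4 UMI was 22.2% and 15.7% before thinning, and 9.43% and 9.40% after it. Zbtb16+ T cells had 61.6 and 31.8 CPM from 65 and 88 cells (−0.96, interval −1.95 to −0.01), past 1.5-fold where 3.94% of genes were. Without the +/+ cell with most S1pr4 UMIs, 2 of 27, the interval included 0 (−0.87, interval −1.87 to 0.09).

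The other S1P receptors were nearly absent from Treg cells. S1pr2, a receptor that restrains movement, was at 5.88 and 3.15 CPM in +/+ and fl/fl Treg-gated cells. S1pr3 gave 0 UMIs in +/+ and 0.206 CPM in fl/fl, and S1pr5, the exit receptor of NK cells, 0.339 and 0.651 CPM. NK-gated cells had 121.7 and 97.5 CPM of S1pr5 and 28.1 and 28.2 CPM were found in cytotoxic CD8 T cells. Effector conventional CD4 T cells had no S1pr5 UMI in +/+ and 25 UMIs (23.1 CPM) in fl/fl. In the same gate the summed level of 6 cytotoxic T cell markers was 1869.0 CPM in +/+ and 6485.1 CPM in fl/fl, and its part in the S1pr5 value was not tested.

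Cd69, the retention protein's gene, was higher in fl/fl in 4 of the 6 Treg gates, and the intervals of the other 2 included 0. Resting cells had 290.7 CPM (interval 279.9 to 301.9) in +/+ and 394.9 CPM (385.2 to 404.8) in fl/fl, a log2 ratio of 0.44 (0.38 to 0.51). Intermediate cells had 289.5 and 373.7 CPM (0.37), effector cells 303.8 and 341.2 CPM (0.17, interval 0.06 to 0.28), and late effector cells 288.8 and 311.0 CPM (0.11, interval −0.06 to 0.27). The ratio of resting over effector cells was −0.04 in +/+ and 0.26 in fl/fl. With gates rebuilt on thinned counts it was −0.19 (interval −0.33 to −0.04) in +/+ and 0.07 (−0.08 to 0.23) in fl/fl. None of the 6 ratios reached 1.5-fold. The thinned share of all Treg-gated cells with a Cd69 UMI was 46.9% in +/+ and 54.1% in fl/fl, and the unthinned share 69.1% and 81.3%.

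Higher Cd69 in the fl/fl library was not limited to Treg-gated cells. Naive-like CD8 T cells had 272.5 and 387.8 CPM (log2 ratio 0.51, interval 0.27 to 0.75), which was the largest Cd69 ratio among the T cell gates. Resting conventional CD4 T cells had 287.2 and 335.3 CPM (0.22, interval 0.07 to 0.38), and follicular B cells 378.2 and 424.1 CPM (0.17, interval 0.01 to 0.32). Cytotoxic CD8 T cells, at 313.2 and 304.9 CPM, had an interval that included 0. Dendritic cells had 65.6 and 111.7 CPM (0.77, interval 0.23 to 1.30), past 1.5-fold where 5.85% of genes were, but 27 of their 65 fl/fl UMIs came from 1 cell, without which the ratio was 0.07 (interval −0.56 to 0.68). The levels of Cd69 were highest in interferon-responding Treg cells (382.1 CPM in +/+, 484.4 CPM in fl/fl) and in follicular B cells, and lowest in neutrophils (33.2 and 32.1 CPM). In the +/+ library neighbours did not differ beyond counting error from interferon-responding down to cycling Treg cells (222.4 CPM). This holds for adjacent gates only, not for the ends of the run.

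Cd69 is also induced when cells are activated or handled, so a list of 14 early activation and dissociation genes was read beside it. In Treg-gated cells 12 of the 14 were measured, and their median log2 ratio was −0.57, against −0.13 for all genes. Of the 12, 6 were past 1.5-fold lower in fl/fl (Fosb, Junb, Jund, Ier2, Dusp1 and Zfp36) and 1 past it higher (Myc, a growth regulator, 64.0 and 98.6 CPM). Of all measured genes 9.28% were past it lower and 2.28% higher. Junb, a subunit of the AP-1 transcription factor, was at 2248.6 and 1236.9 CPM in +/+ and fl/fl, and Dusp1, a phosphatase that limits MAP kinase signalling, at 726.8 and 311.1 CPM (log2 ratio −1.22). Most genes of this list were thus lower in the library in which Cd69 was higher, while Jun (244.4 and 325.0 CPM, ratio 0.41) was on the side of Cd69. Across cells of 1 library the direction was the other one. In resting Treg-gated cells with 0, 1, and 2 or more Cd69 UMIs after thinning, the early genes summed to 7068.4, 7184.4 and 7688.7 CPM in +/+. In fl/fl they summed to 4893.9, 5092.2 and 5543.2 CPM. In resting conventional CD4 T cells of both libraries they were highest at 1 Cd69 UMI. In conventional CD4 T cells and in B cells, no gene of the list was past 1.5-fold. The medians were −0.19 and −0.18, against −0.02 and −0.06 for all genes. The list was thus shifted down there too. Of its 12 measured genes, intervals lay below 0 for 8 and 7, and above 0 for 0 and 1. Over all genes, 2.60% were past it higher and 2.84% lower in conventional CD4 T cells, and 1.96% and 2.78% in B cells. The part of these genes in the Cd69 value was not tested.

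Within resting Treg-gated cells, Cd69 and S1pr1 transcripts were found together about as often as the product of their separate shares gives. After thinning, 250 of 1511 +/+ cells had a UMI of both genes, against 258.9 by that product. In fl/fl, 561 of 2199 cells had both, against 565.6. The correlation of the thinned counts over cells was −0.04 in +/+ and −0.01 in fl/fl, and the counts are too sparse for so weak a value to be a finding. Grouping the resting cells by their Cd69 UMIs (0, 1, or 2 and more) gave S1pr1 levels of 222.5, 208.3 and 190.5 CPM in +/+ and of 284.0, 293.5 and 269.6 CPM in fl/fl. The fl/fl level was the higher in each Cd69 class, with log2 ratios of 0.35, 0.49 and 0.50. S1pr4 was the lower in fl/fl in each Cd69 class, with ratios of −0.53, −1.15 and −1.18. In the sum of effector and late effector cells, the S1pr1 ratio was 0.95 in cells with no Cd69 UMI, 0.60 in cells with 1, and 0.00 (interval −0.67 to 0.65) in cells with 2 or more. The S1pr4 ratios there were 0.60 (interval 0.14 to 1.06), 0.59 (−0.09 to 1.24) and −0.32 (−1.28 to 0.56).

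Klf2, which activates S1pr1, was higher in fl/fl Treg-gated cells as well, at 607.7 and 975.9 CPM in +/+ and fl/fl (log2 ratio 0.68, interval 0.66 to 0.71). This pooled value also carries the difference in makeup, and in the resting band alone the Klf2 ratio was short of 1.5-fold. In conventional CD4 T cells Klf2 stood at 817.1 and 953.4 CPM (0.22, interval 0.15 to 0.29), and in B cells at 1500.9 and 1299.8 CPM (−0.21). S1pr1 was higher in resting Treg-gated cells with more Klf2 UMIs. In +/+ it was 123.3 CPM in cells with no Klf2 UMI after thinning, 214.0 CPM with 1 and 247.7 CPM with 2 or more, and in fl/fl 197.1, 273.9 and 300.1 CPM. In each Klf2 class the fl/fl resting cells had more S1pr1, with log2 ratios of 0.68 (interval 0.30 to 1.06), 0.36 (0.08 to 0.64) and 0.28 (0.13 to 0.43). Cells with 2 or more Klf2 UMIs numbered 838 of 1511 in +/+ and 1554 of 2199 in fl/fl. This class has no upper limit, and its cells had a mean of 3.71 Klf2 UMIs in +/+ and 4.32 in fl/fl, so the class does not hold Klf2 equal. The part of Klf2 in the S1pr1 value was not tested. S1pr4 was also highest in the resting cells with 2 or more Klf2 UMIs, at 65.4 and 33.5 CPM in +/+ and fl/fl. Its level was lower in fl/fl in each Klf2 class of resting cells, although the interval at 0 UMIs included 0 (−0.59, interval −1.54 to 0.30). In the sum of effector and late effector cells, the S1pr1 ratios at 0, 1, and 2 or more Klf2 UMIs were 0.37 (interval −0.19 to 0.90), 0.07 (−0.51 to 0.62) and 0.66 (0.29 to 1.03). The S1pr4 ratios there were −0.30 (interval −0.98 to 0.34), 1.05 (0.30 to 1.80) and 0.35 (−0.18 to 0.88).

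**Figure D3:**
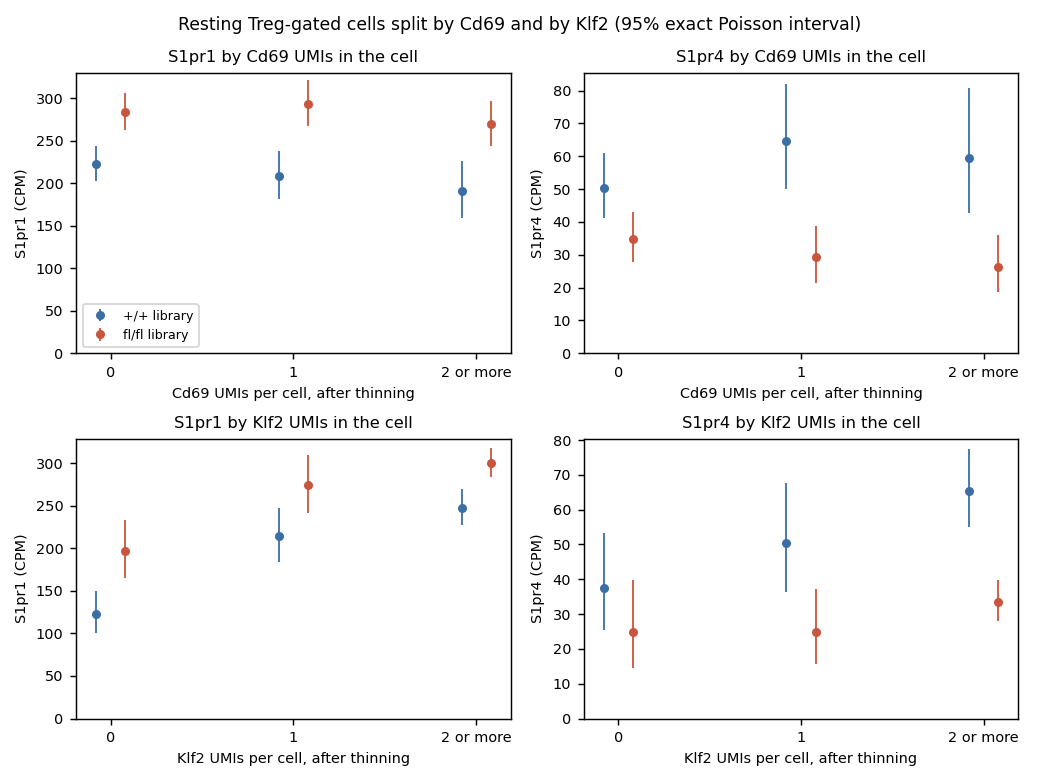
S1pr1 (left) and S1pr4 (right) levels in CPM (vertical axes) of resting Treg-gated cells grouped by the cell's UMIs of Cd69 (top) or Klf2 (bottom) after thinning to 2500 UMIs, for the +/+ (blue) and fl/fl (red) libraries, with 95% exact Poisson intervals. S1pr1 lies above its +/+ value in fl/fl in each class and is higher with more Klf2 UMIs (123.3 to 247.7 CPM in +/+), and S1pr4 lies below its +/+ value in each class.

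Gpr183, the oxysterol receptor, separated cell types more than libraries. In Treg-gated cells it was within 1.5-fold in all 6 gates, with ratios from −0.20 to 0.11. Resting cells had 170.1 CPM in +/+ and 183.3 CPM in fl/fl (0.11, interval 0.02 to 0.20), and effector cells 228.7 and 198.5 CPM (−0.20, interval −0.35 to −0.06). Conventional CD4 T cells had far more of it: 389.9 and 507.4 CPM in the resting band, 572.2 and 498.6 CPM in the intermediate band, and 531.7 and 416.7 CPM in the effector band. The resting conventional over resting Treg ratio was 1.20 (interval 1.08 to 1.32) in +/+ and 1.47 (1.37 to 1.57) in fl/fl, that is 2.29-fold and 2.77-fold. Past 1.5-fold in this direction were 4.07% of all genes in +/+ and 7.79% in fl/fl. In the effector bands the conventional over Treg ratio was 1.28 in +/+ and 1.12 in fl/fl, where 4.97% and 8.36% of genes were past 1.5-fold.

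Gpr183 was highest in follicular B cells (656.0 CPM in +/+, 663.9 CPM in fl/fl), and marginal zone B cells had 399.3 and 485.3 CPM. Dendritic cells had 285.1 and 244.0 CPM. At the other end, NK cells had 11.3 and 15.9 CPM, with a UMI in 2.52% and 4.55% of cells before thinning at median depths of 4046.0 and 3969.0 UMIs. Neutrophils had 1.23 CPM in +/+ and none in fl/fl, which allows up to 6.87 CPM, with a UMI in 1.15% and 0% of cells. After thinning the NK shares were 2.61% and 4.32%, against 0% in the neutrophils of both libraries. The NK over neutrophil log2 ratio was 3.20 (interval 0.31 to 8.68) in +/+. The kit keeps the strand of the transcript, so Ubac2 reads from the opposite strand would not be counted as Gpr183 where counting used strand. The counting setting is not given in the sources used here.

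In monocyte- or macrophage-gated cells Gpr183 was at 131.1 CPM (132 UMIs) in +/+ and 44.7 CPM (22 UMIs) in fl/fl, a log2 ratio of −1.55 (interval −2.27 to −0.89). This was past 1.5-fold lower, as were 10.7% of genes in this gate. The gate held 118 and 76 cells with median depths of 8507.0 and 6034.5 UMIs, and can mix several myeloid types. The summed level of 4 erythroid markers in it was 1430.2 CPM in +/+ and 8972.8 CPM in fl/fl, and its part in the value was not tested. Among conventional CD4 T cells, Gpr183 was higher in fl/fl in the resting band (0.38, interval 0.25 to 0.51) and lower in the effector band (−0.35, interval −0.55 to −0.15). The difference between these bands was not tested.

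Selplg, the gene of PSGL-1, was within 1.5-fold in all 6 Treg gates. Resting Treg-gated cells had 236.3 CPM in +/+ and 215.6 CPM in fl/fl (log2 ratio −0.13, interval −0.21 to −0.05). Intermediate cells had 169.2 and 191.6 CPM (0.18, interval 0.04 to 0.32), effector cells 163.6 and 158.9 CPM (−0.04), and late effector cells 194.4 and 269.8 CPM (0.47, interval 0.28 to 0.66). Late effector cells thus had the largest Treg difference, higher in fl/fl, and in the same gate the cytotoxic T cell markers summed to 1386.6 CPM in +/+ and 2682.1 in fl/fl. Effector conventional CD4 T cells were on the same side (228.8 and 286.1 CPM; 0.32, interval 0.05 to 0.60), and their cytotoxic markers were higher in fl/fl too. Cytotoxic CD8 T cells had 369.5 and 308.2 CPM (−0.26, interval −0.45 to −0.07), and there the markers summed to 10227.1 and 14064.5 CPM, higher in the library with less Selplg. The part of the cytotoxic markers in these values was not tested.

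Among cell types, Selplg was highest in NK cells, at 482.7 and 355.0 CPM in +/+ and fl/fl (−0.44, interval −0.67 to −0.22). The cytotoxic markers of NK cells summed to 33639.4 and 39796.7 CPM. Cytotoxic CD8 T cells came next and differed from NK cells beyond counting error in +/+ and not in fl/fl. Dendritic cells (233.0 and 225.1 CPM), monocytes or macrophages (177.8 and 150.4 CPM) and neutrophils (122.9 and 137.5 CPM) lay near the Treg-gated cells. B cells had the least: 20.5 and 32.7 CPM in follicular, 17.2 and 21.2 CPM in marginal zone, and 28.0 and 25.7 CPM in other B cells. In follicular B cells, 29 and 76 UMIs gave a log2 ratio of 0.67 (interval 0.04 to 1.34), past 1.5-fold where 1.57% of genes were. Of the 76 fl/fl UMIs 8 came from 1 cell, and without it the ratio was 0.52 (interval −0.12 to 1.20), short of 1.5-fold. The T cell marker Cd3e was at 0.707 and 1.29 CPM in +/+ and fl/fl in the same cells. The B cell gate limits T cell markers, so this value does not check for T cell RNA.

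The pathway around the members was read from lists of related genes in Treg-gated cells. Of 14 genes in the matrix for the other S1P receptors and their signalling, 11 were measured, with a median log2 ratio of −0.46 against −0.13 for all genes. Past 1.5-fold lower in fl/fl were 2 of them: Gna12, a G protein subunit (24.0 and 15.9 CPM, ratio −0.60), and Arrb1, a β-arrestin that ends receptor signalling (15.4 and 8.26 CPM, −0.90). None was higher past 1.5-fold. Gnai2, the G protein subunit through which S1PR1 acts, was at 435.6 and 390.9 CPM (−0.16), Grk2, a kinase that desensitizes S1PR1 in blood, at 122.5 and 95.7 CPM (−0.36), and Rac2, a GTPase of migrating leukocytes, at 690.3 and 468.7 CPM (−0.56). Of the 11, Arhgef1 alone had a ratio above 0 (0.09). Of 10 genes that make, break down or transport S1P, 4 were measured and none was past 1.5-fold. They included Sgpl1, the S1P lyase, at 30.1 and 23.8 CPM, and Sgpp1, an S1P phosphatase, at 36.9 and 44.5 CPM. None of the 5 genes of oxysterol synthesis and breakdown reached 10 CPM in these cells.

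PSGL-1 binds P-selectin only when it carries sulfate and sugar groups, and 8 of 14 genes for this decoration and for selectins were measured. St3gal6, a sialyltransferase, was past 1.5-fold higher in fl/fl (7.61 and 14.3 CPM, log2 ratio 0.91), and Tpst2, a tyrosine sulfotransferase, past it lower (64.9 and 38.3 CPM, −0.76). The median of the 8 was −0.18. Fut7, the fucosyltransferase needed for selectin binding, gave 56 UMIs in +/+ and 4 in fl/fl Treg-gated cells, both under the 10 CPM floor.

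All 13 genes of the list of transcription factors and signals tied to recirculation were measured, with a median of −0.20. Klf2 was the one past 1.5-fold higher in fl/fl, where 2.28% of all genes were. Past it lower were 4, where 9.28% of all genes were. These 4 were Cxcr4, a chemokine receptor that holds cells in bone marrow (93.3 and 54.2 CPM, −0.78), the integrin genes Itgb7 (207.4 and 119.7 CPM, −0.79) and Itgal (235.2 and 112.8 CPM, −1.06), and Itgae (−0.65), which served as an effector marker and is therefore no finding. In the resting band 9 genes of the list were measured. None of them, Klf2 included, was past 1.5-fold higher, and 2 were past it lower. The shares of all genes there were 2.81% and 8.36%. Ccr7, the receptor for homing to T cell zones, was at 86.3 and 121.5 CPM (0.49), and Foxo1, a regulator of Klf2, at 357.1 and 421.7 CPM (0.24). In the sum of effector and late effector cells, S1pr1 was past 1.5-fold higher (88.1 and 137.4 CPM; 0.64, interval 0.49 to 0.79), as were 3.77% of genes. In the same cells 2 genes of the list were past 1.5-fold higher and 2 past it lower. The higher ones were Prdm1 (30.4 and 60.3 CPM, 0.99) and Zeb2 (15.7 and 34.1 CPM, 1.12), transcription factors of late effector cells.

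**Figure D4:**
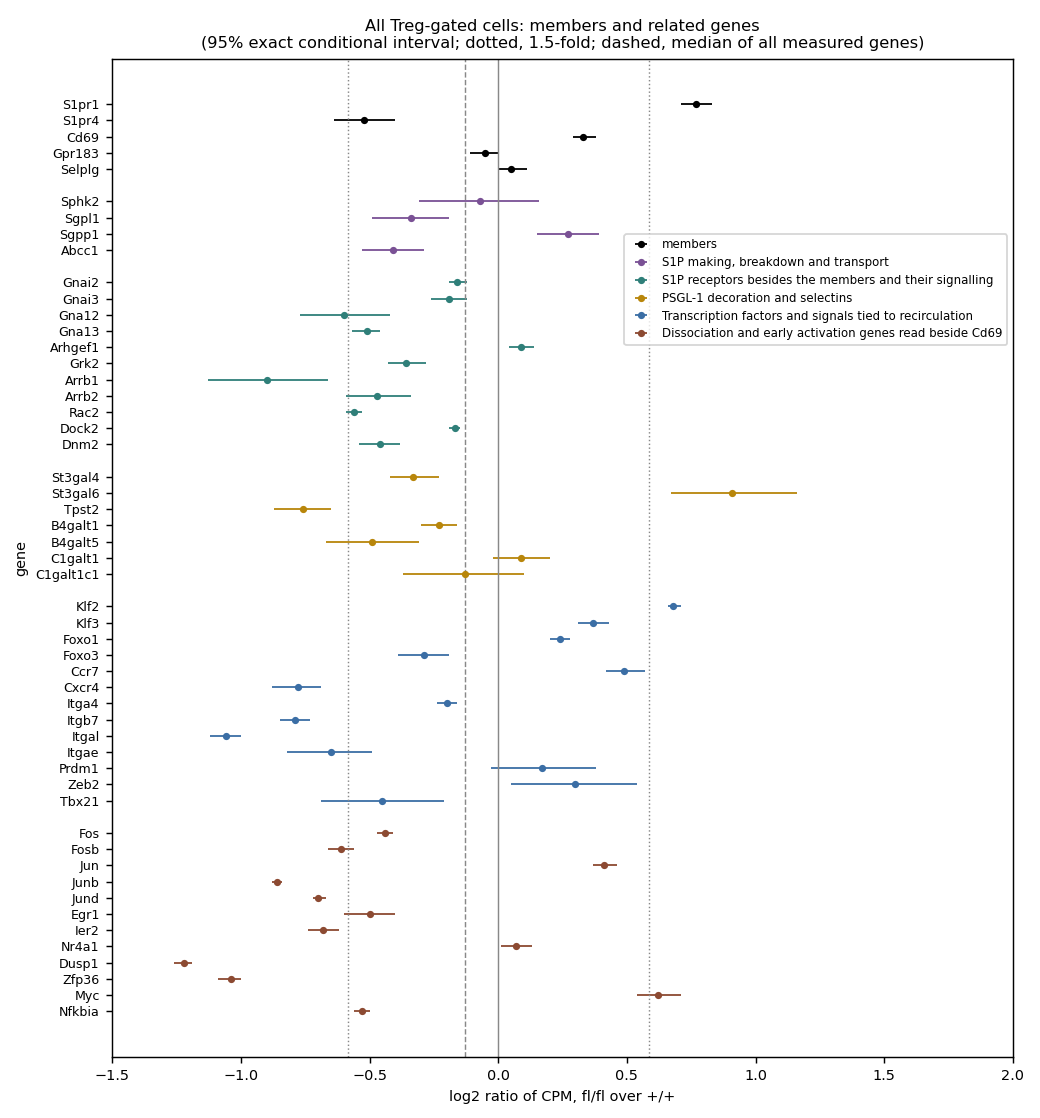
Log2 ratio of CPM, fl/fl over +/+ (horizontal axis), in all Treg-gated cells for the 5 members and the measured genes reported from each list (rows, coloured by list), with 95% exact conditional intervals; dotted lines mark 1.5-fold and the dashed line the median of all measured genes (−0.13). S1pr1 (0.77) and Klf2 (0.68) lie to the right, and S1pr4 (−0.52), Cxcr4 (−0.78), Itgal (−1.06) and Dusp1 (−1.22) to the left.

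Markers of other cell types were low in Treg-gated cells, and some differed between the libraries. The T gate limits how many B cell, neutrophil and monocyte or macrophage markers a cell may have. Low levels of these markers are therefore no check of purity. The summed level of the B cell markers was 15.8 CPM in +/+ and 7.40 CPM in fl/fl, that of the neutrophil markers 27.7 and 11.6 CPM, that of the monocyte or macrophage markers 60.3 and 97.0 CPM, and that of the erythroid markers 3.50 and 21.1 CPM. Cd8a and Cd8b1 were at 0 by the gate, and Cd79a (1.36 and 1.95 CPM) and Csf3r (0.264 and 0.103 CPM), which the gate limits, were near 0. Treg-gated cells above 15000 UMIs, where doublets would gather, numbered 133 and 191, and without them the S1pr1 log2 ratio was 0.79 and that of S1pr4 −0.50. In the T cells with a Foxp3 UMI alone, S1pr1 was at 132.9 and 233.4 CPM in +/+ and fl/fl (0.81, interval 0.69 to 0.94), and S1pr4 at 45.2 and 29.8 CPM (−0.60, interval −0.87 to −0.33).

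To find genes with a like pattern, log2(CPM + 1) was correlated with that of each member over the 38 sums of cells with at least 50 cells (cell types in both libraries), among 7287 genes. These sums share 2 libraries and their depth, and r is a description. S1pr1 was most like Pced1b (r = 0.95), Traf3ip3 (0.89) and Cd2, an adhesion receptor of T and NK cells (0.89). Its r with Cd69 was 0.85, and with Klf2 0.38. S1pr4 was most like Stim1, the calcium sensor of the endoplasmic reticulum (0.90), Tmem71 (0.85) and Stat4, a transcription factor of interleukin-12 signalling (0.85), and had an r of 0.48 with S1pr1. Cd69 was most like Rhoh (0.89), Casc4 (0.89) and Foxo1 (0.87), and Gpr183 like St6gal1 (0.87), Pgap1 (0.86) and Utp20 (0.86), with 0.79 for Ccr7. Selplg was most like Iqgap2 (0.95), Ppm1h (0.94) and Vps26b (0.94), and its r with the other members was between −0.27 and 0.46.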

How the data were processed

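Single-cell RNA was captured with the 10x Genomics 3' V3.1 kit, per the labels' protocols. The authors deposited raw UMI counts per gene and barcode with no normalization, and Cell Ranger 7.1.0 made the matrices, per the file headers. The submitters' processing notes also name fastp, Seurat 4.1.1 and the builds mm10 and GRCm38. The filters behind the deposited barcodes are not given in the sources used here.

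Barcodes with under 500 genes or over 10% mitochondrial counts were left out. Each cell was gated by the number of marker genes detected: T cells needed 3 of 5 T cell markers, and Treg cells in addition 3 of 8 Treg markers with Foxp3 or Ikzf2 among them and no Cd8a or Cd8b1. The bands were resting (resting minus effector markers at least 2), effector (below 0) and intermediate (0 or 1). The limits of the gates were chosen after seeing the data. S1pr3 was kept out of the marginal zone B cell markers. Each lineage gate allowed a few markers of other lineages. Cells past those limits, or with too few markers of any lineage, were left unassigned (5.92% of +/+ and 6.29% of fl/fl cells). No doublet caller was run. T cells in none of the described gates numbered 1322 and 1551. Gates with under 50 cells in a library (plasma cells, neutrophils) have levels and no ratio.

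Counts were summed over the cells of each gate in a library, and CPM used the total UMIs of that sum. Levels have exact Poisson intervals, and ratios exact conditional binomial intervals, at 95%. A level of 0 is given with the limit that 3 counts would set. A gene was measured in a gate if its level reached 10 CPM in +/+ or fl/fl. The calculation was tested on simulated data. No p-value was computed, since each group has 1 library, and differences between genes' levels were not compared. The 5 members and the 6 gene lists around them were chosen with earlier results of these data known. Related genes are named where they reached 1.5-fold, were the best expressed 2 of their list, or were needed beside a member, and like genes are the 3 with the highest Pearson r among genes at 20 CPM or more in at least 5 sums. Genes named beyond these (Sgpp1, Fut7, Grk2, Rac2, Jun and the other S1P receptors among them) were chosen after their values were seen. A gene of these lists is not reported here, though it is counted in its list's median. Alternatives changed the scaling, the Treg gate, the weighting of bands, the depth, the UMI and mitochondrial limits, and the CPM floor and fold. Python 3.11.15, NumPy 2.4.6, SciPy 1.17.1, pandas 2.3.3 and matplotlib 3.10.9 were used.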

Additional observations from a re-analysis of the deposited data

Results flagged for a closer look

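For 3 members the ratio between the libraries had opposite signs in a pair of cell types, with counting intervals that excluded 0 on both sides. The share of all genes with such a pair was not counted, so the number of members is no finding. None of these differences was tested, since each group has 1 library. The S1pr1 log2 ratio, fl/fl over +/+, was 1.21 in interferon-responding Treg cells and −0.42 in intermediate conventional CD4 T cells. The latter came from 76 and 69 cells, with an interval that came close to 0. The Gpr183 log2 ratio was 0.38 in resting conventional CD4 T cells and −1.55 in monocytes or macrophages. The Selplg log2 ratio was 0.67 in follicular B cells and −0.44 in NK cells. Without the fl/fl cell that held 8 of the 76 follicular B cell UMIs, the Selplg ratio was 0.52 (interval −0.12 to 1.20), an interval that includes 0.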

How the results depend on the processing

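The S1pr1, S1pr4 and Cd69 ratios in Treg-gated cells kept their sign under each of the 9 alternatives run. Scaling to the median ratio over genes gave log2 ratios of 0.89 for S1pr1, −0.39 for S1pr4, 0.46 for Cd69, 0.07 for Gpr183 and 0.18 for Selplg, so the Gpr183 sign turned. It gave 294 genes past 1.5-fold higher and 531 lower (35.6% higher), against 183 and 744 (19.7% higher) by total UMIs. Weighting the 4 resting to late effector gates alike gave 0.63 for S1pr1, −0.19 for S1pr4, 0.28 for Cd69 and 0.13 for Selplg. In T cells with a Foxp3 UMI alone Gpr183 was at 0.05 (interval −0.07 to 0.17). Gates rebuilt on thinned counts, an alternative chosen after seeing the data, gave 0.85 for S1pr1, −0.39 for S1pr4 and, for Selplg resting over effector cells in fl/fl, −0.06 against 0.11. The number of genes past 1.5-fold, 927, was 337 with a floor of 50 CPM, 2899 with no floor and 341 at 2-fold. Of 50 resting over effector values, 41 moved by less than their counting interval and 9 by more, and 5 turned sign. Besides that of Selplg, these were S1pr4 in +/+ (−0.14), at 0.02 thinned and 0.04 with rebuilt gates, and Gpr183 in fl/fl (−0.06), at 0.07 with 1 more Treg marker and 0.14 with rebuilt gates. Of 11 calls in single gates, 4 were short of 1.5-fold or had an interval that included 0 without 1 cell: S1pr4 in cycling and Zbtb16+ cells, Selplg in follicular B cells and Cd69 in dendritic cells. The cause of these shifts was not tested. No paired analysis was possible because each group has 1 library, and for the same reason no replicate could be left out. Depth limits S1pr4 in marginal zone B cells, Selplg in B cells and all genes in gates under 100 cells.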
